A study of Homo sapiens with 6 samples.

Results

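The protein-coding genes whose symbol begins with EIF encode the eukaryotic translation initiation factors and the kinases and binding proteins that control them. They were taken as one group by that naming rule, and the family was chosen with earlier results of these data known. The count table listed 60656 genes, of which 56 met the rule. Of these 56, 48 had enough counts for a test among the 10863 genes tested, and the other 8 did not: EIF1AY, EIF2S3B, EIF3C, EIF3CL, EIF3L, EIF4E1B, EIF4EBP3 and EIF5A2.

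RNA was measured in ZR-75-1, an established cell line of oestrogen receptor-positive (luminal) breast cancer, and all libraries were of the parental line. Abemaciclib, a drug that inhibits the cell cycle kinases CDK4 and CDK6, had been given at 500 nM for 4 days to the cells of 3 libraries, and its solvent DMSO in the same volume to those of the other 3, in the same serum-containing medium. The comparison of the treated with the control libraries asks how the steady-state mRNA of each gene differed after the drug. The labels number the replicates, which the study describes as biologically independent, and a single line is a limited model of luminal cancer.

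Translation initiation brings the ribosome, an mRNA and the initiator tRNA together. In the canonical route, eIF2 carries the initiator tRNA to the small ribosomal subunit, eIF1, eIF1A, eIF3 and eIF5 assemble on that subunit and govern the choice of start codon, eIF4E binds the mRNA cap, eIF4G bridges cap and ribosome, eIF4A unwinds the leader, and eIF5B joins the large subunit. The pathway is controlled mainly on its proteins: kinases phosphorylate eIF2 and so block its exchange factor eIF2B, and the 4E-BP repressors sequester eIF4E until mTOR phosphorylates them. The counts below are of mRNA only, and neither protein nor phosphorylation was measured.

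As a check of the treatment, all 6 cycling markers fell, by very different amounts. The largest fall was that of MKI67, from a mean of 525.8 CPM (counts scaled by TMM to a common library total) in DMSO to 5.0 CPM in abemaciclib, TOP2A went from 2035 to 103.1 CPM, and the smallest fall was that of MCM2, from 153.1 to 82.9 CPM. All 8 luminal markers had enough counts for a test, of which 3 rose, 1 fell and 4 did not pass. Of 8 markers of basal, fibroblast, haematopoietic and endothelial cells, 7 were at 0 in every library, and COL1A1 was at 13.1 ± 2.68 CPM in DMSO and 12.5 ± 2.67 CPM in abemaciclib (SD, n = 3 each). In bulk libraries, fewer cells of a kind and less RNA per cell cannot be told apart, so a lower level here is a smaller share of the library's RNA. The libraries held 3317860 to 4013156 counts.

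Sequence around the start codon is shown first, because eIF1 and eIF5 act on start codon choice and were the members that fell furthest. A start codon is called strong in context when a purine stands 3 bases before it and a G directly after it. Over 19344 canonical transcripts of the GENCODE annotation (GRCh38), 43.5% had both, 6.15% had neither, 86.1% had the purine and 51.3% had the G. Of 55 members with such a transcript, 24 had both features (43.6%) and 4 had neither (7.27%), which was close to all transcripts. The 4 with neither were EIF1, its paralogue EIF1B, EIF3B and EIF4E1B. The following lines give, for 9 of the 10 members past the test, 12 bases before the start codon, the start codon in capitals and the 5 bases after it, 5′ to 3′ on the transcript's strand.
EIF1, lower: gaatcgtatcgtATGtccgc
EIF5, lower: taataagccaaaATGtctgt
EIF2S2, lower: cgagccgcagccATGtctgg
EIF4E2, lower: ggcggcgagaggATGaacaa
EIF4A3, lower: ggactctgaatcATGgcgac
EIF4G3, higher: acccctcagacaATGaattc
EIF2S3, higher: tcttttggcaacATGgcggg
EIF3F, higher: tttctcgacaagATGgccac
EIF5B, higher: cattgacaagcaATGgggaa

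Both features were present in 1 of the 5 members that fell, EIF4A3, and in 4 of the 5 that rose. Among the 37 tested members with a transcript that did not pass the test, 17 had both (45.9%). These counts are a description of 5 genes a side, with no test, and the sequence was looked at after the expression values were known.

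The expression of the family as a whole moved little. Of the 48 members tested, 5 were higher (EIF2S3, EIF3F, EIF3H, EIF4G3 and EIF5B) and 5 lower (EIF1, EIF2S2, EIF4A3, EIF4E2 and EIF5) after abemaciclib at an adjusted P under 0.05 (edgeR quasi-likelihood test, Benjamini–Hochberg over all genes tested). That was 20.8% of members, against 25.7% of all genes tested, of which 12.5% were higher and 13.3% lower. At an unadjusted P under 0.05 (edgeR), 7 of the 48 members were higher and 7 lower, against 1940 higher and 1986 lower of all 10863 genes tested. The counts rested in part on single libraries: 3 members were higher without DMSO replicate 2, and 3 were lower without DMSO replicate 1 and also without abemaciclib replicate 2. The treated and control libraries did not overlap for 8 members higher and 8 lower, and did not overlap for 39.1% of all genes tested.

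Members were mostly well-expressed genes, with a median of 100.4 CPM against 25.0 CPM over all genes tested, and calls are more frequent where counts are higher. Among genes with a mean of at least 100 CPM, 7 of 25 members passed the test (28.0%), against 41.8% of all such genes. Sizes of the differences also depend on level. The median size of the log2 fold change, without its sign, was 0.17 over members and 0.32 over all genes tested, and 26 of the 48 members were under 0.2. No member reached a log2 fold change of 1 in either direction, the largest being 0.88 in size, whereas 1135 of all genes tested did (10.4%). At a mean of at least 100 CPM, the median size was 0.16 over the 25 members and 0.24 over all 1724 such genes, of which 4.93% reached a log2 fold change of 1. The median log2 fold change with its sign was -0.08 over members and 0.00 over all genes tested.

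**Figure D1:**
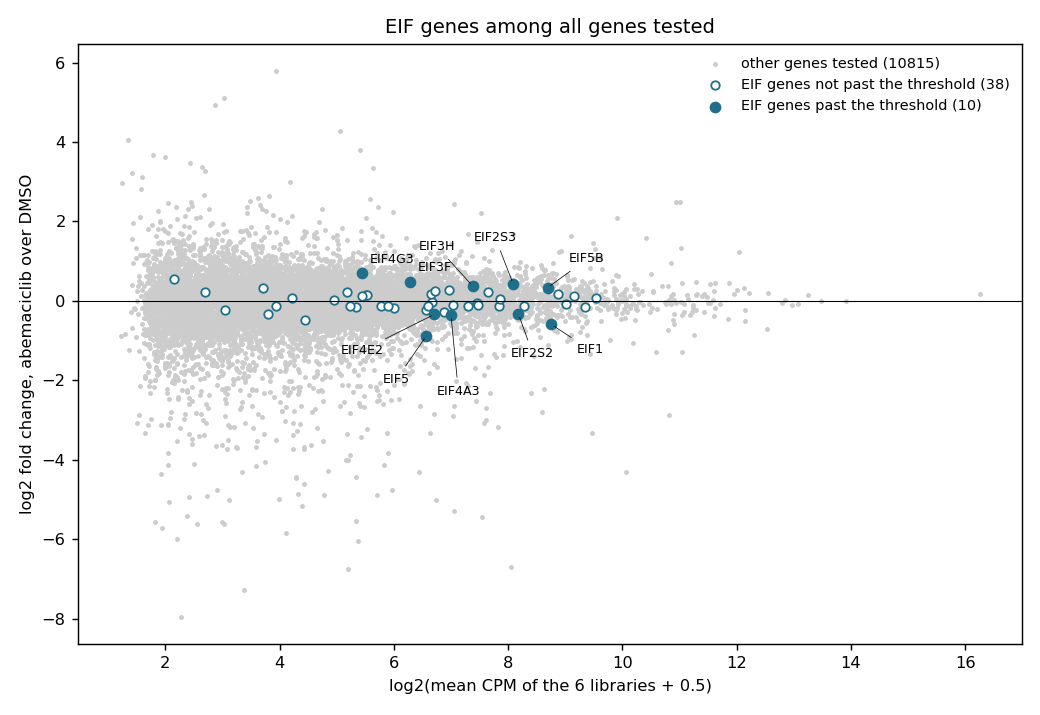
Each point is a gene tested, placed by its mean level over the 6 libraries (horizontal, log2 of CPM plus 0.5) and its log2 fold change, abemaciclib over DMSO (vertical). Filled blue points are the 10 EIF genes past an adjusted P of 0.05, open points the 38 that were not, and grey points the other genes: EIF genes lie between -0.88 and 0.69 while other genes reach -7.95 and 5.78.

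The summed counts of the 56 members were 0.747% to 0.819% of each library. This sum is weighted toward the most abundant members, such as EIF3A with 15699 counts and EIF4G2 with 13729 over all libraries. In DMSO the share was 0.787%, 0.819% and 0.773%, and in abemaciclib 0.747%, 0.773% and 0.795%, so the groups overlapped. The exact 95% binomial interval, which covers counting error only, was 0.737 to 0.756% for the lowest library and 0.809 to 0.829% for the highest.

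**Figure D2:**
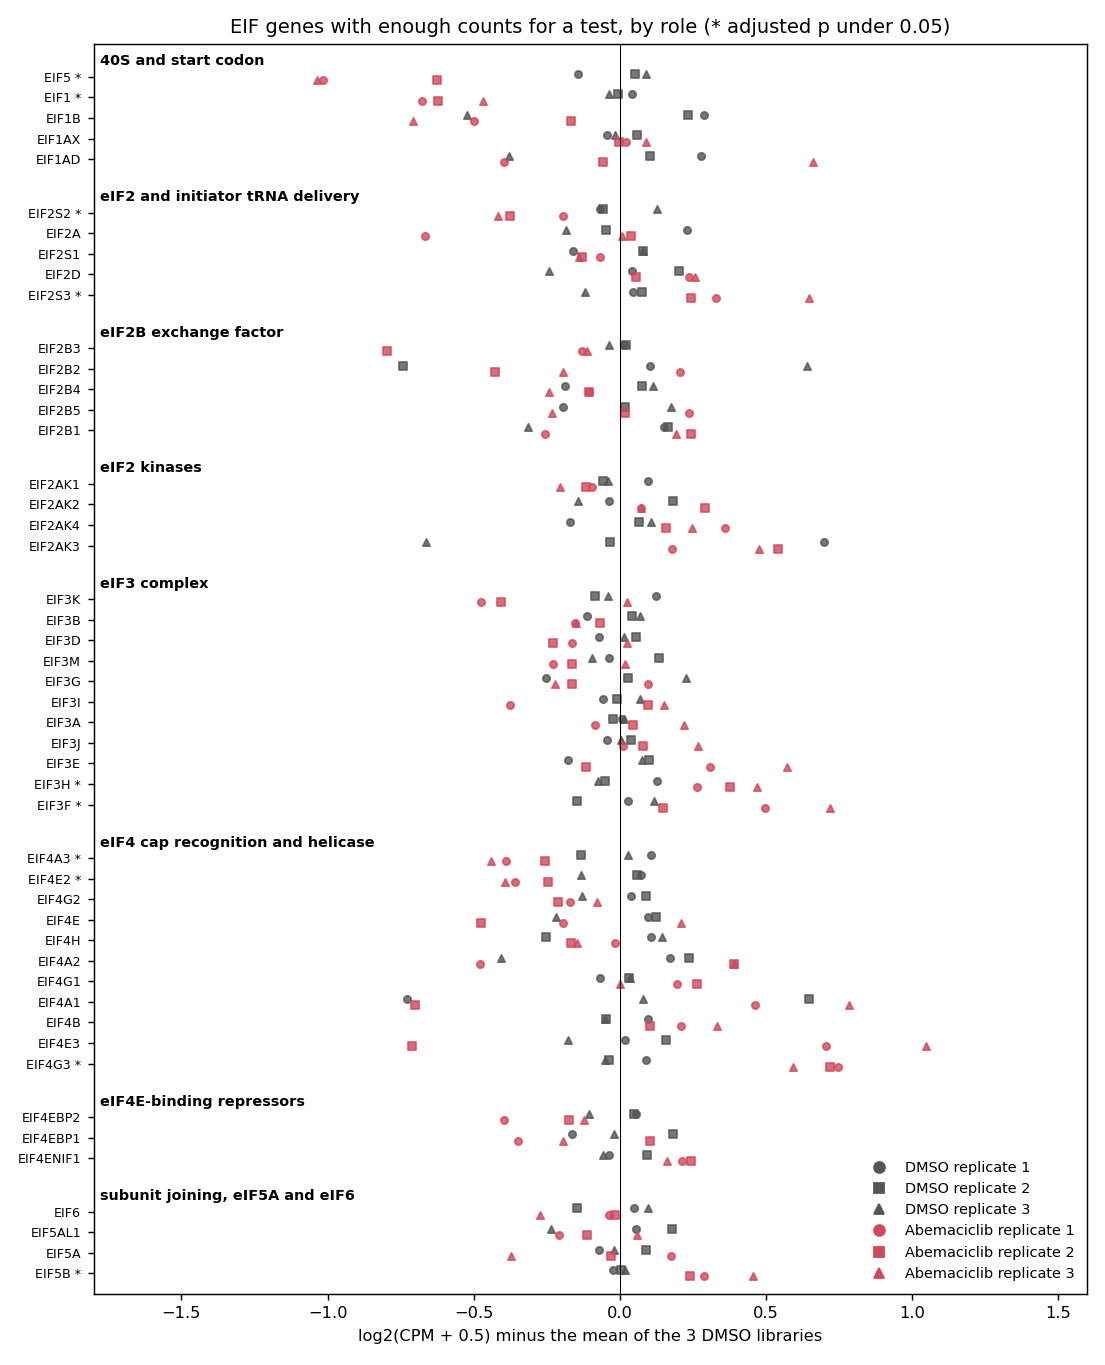
Each of the 48 tested EIF genes is a line, grouped by role and ordered by its difference. Points are single libraries (grey DMSO, red abemaciclib, shape for replicate number), placed by log2(CPM + 0.5) minus the mean of the 3 DMSO libraries, and an asterisk marks the 10 genes past an adjusted P of 0.05: EIF5 and EIF1 stand apart to the left and EIF4G3 to the right, while most genes have both groups on top of each other.

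The factors of the small subunit and start codon held the largest falls. Of 6 members in this role 5 were tested, 2 fell and none rose, against 13.3% lower and 12.5% higher of all genes tested. The median log2 fold change of -0.49 was the value of EIF1B, which did not pass the test. EIF1AX (0.04) and EIF1AD (0.11) did not fall, so the falls were those of EIF5 and EIF1 and not of the whole role. EIF5 (chromosome 14, 103333544 to 103345025, plus strand, GRCh38), the GTPase-activating protein that triggers hydrolysis by eIF2 once a start codon is found, was at 110.8, 126.8 and 130.2 CPM in DMSO. In abemaciclib it was at 60.2, 79.2 and 59.4 CPM. Every treated library was below every control library, and EIF5 fell to 0.542 of its control level (log2 fold change -0.88, SE 0.13, adjusted P = 7e-06, edgeR).

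EIF1 (chromosome 17, 41688885 to 41692668, plus strand), the small protein that holds the scanning ribosome open and rejects poor start codons, was at 530.5, 512.4 and 502.2 CPM in DMSO and at 321.9, 334.1 and 372.3 CPM in abemaciclib. The groups were well apart, with an SD of 14.3 CPM in DMSO and 26.3 CPM in abemaciclib. EIF1 fell by 0.59 on the log2 scale (SE 0.09, adjusted P = 1.87e-05, edgeR). Both falls held under each of the 13 alternative settings tried. EIF1B, a close paralogue read at a far lower level, had means of 24.9 and 17.7 CPM with overlapping libraries and a log2 fold change of -0.49 (adjusted P = 0.136, edgeR; 0.0329 without DMSO replicate 3). The 3′ end of EIF1B lies on a same-strand gene model of a later annotation, which had 0 counts or was not in the count table. The level of EIF1B, and its ratio to EIF1, are therefore uncertain. EIF1AX, which acts with eIF1 in scanning, had a log2 fold change of 0.04 with a 95% interval of -0.16 to 0.24. EIF1AY had too few counts to test.

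**Figure D3:**
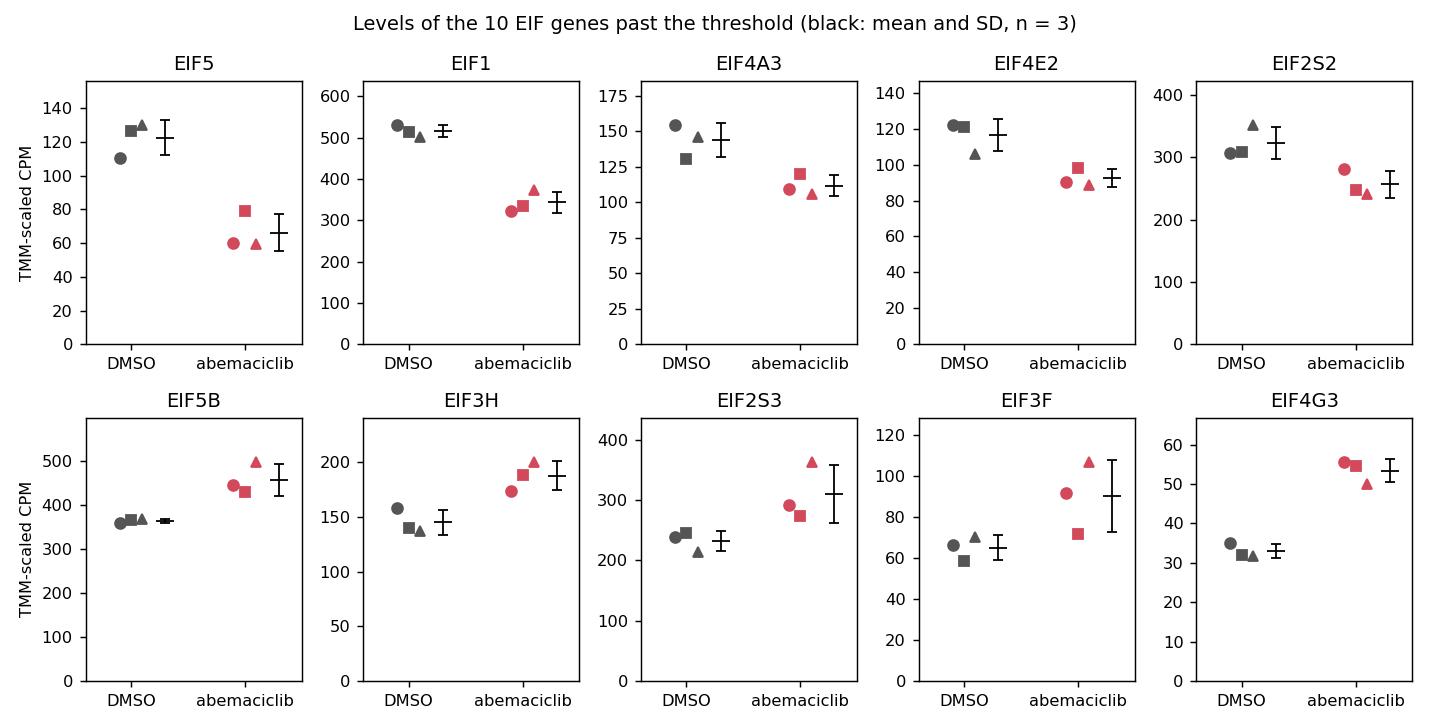
Levels in TMM-scaled CPM of the 10 EIF genes past an adjusted P of 0.05, 1 panel a gene with its own axis from 0, for 3 DMSO (grey) and 3 abemaciclib (red) libraries. Black marks are the mean and SD (n = 3), the shapes give the replicate number, and in every panel the groups do not overlap: the top 5 genes are lower and the bottom 5 higher after abemaciclib.

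The subunits of eIF2, the GTPase that carries the initiator tRNA, moved in different directions. Of 6 members of this role 5 were tested, 1 rose and 1 fell. EIF2S3 (chromosome X, 24054946 to 24078810, plus strand), the gamma subunit that binds GTP and the tRNA, was at 239.3, 244.8 and 213.5 CPM in DMSO and at 291.6, 274.6 and 364.2 CPM in abemaciclib. The groups did not overlap, though abemaciclib replicate 3 was well above the other treated libraries, and EIF2S3 rose 1.33-fold (log2 fold change 0.42, SE 0.11, adjusted P = 0.00495, edgeR). EIF2S2 (chromosome 20, 34088309 to 34112243, minus strand), the beta subunit, which binds eIF5 and eIF2B, was at 307.7, 309.5 and 352.3 CPM in DMSO and at 282.0, 248.2 and 241.6 CPM in abemaciclib.

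EIF2S2 thus fell to 0.796 of its control level (log2 fold change -0.33, SE 0.10, adjusted P = 0.0149, edgeR). The call was lost without DMSO replicate 3 (adjusted P = 0.0999) and without abemaciclib replicate 2 (adjusted P = 0.0716). Its 7 pseudogenes together had 211 counts against 6098 for EIF2S2 itself. EIF2S1, the alpha subunit and the target of the eIF2 kinases, was at 55.1, 65.1 and 65.1 CPM in DMSO and at 58.7, 56.3 and 55.9 CPM in abemaciclib. The groups overlapped, and its log2 fold change was -0.12 with a 95% interval of -0.40 to 0.17.

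The ratio between the subunits shows the same values without any scaling between libraries. The log2 ratio of EIF2S3 to EIF2S2 was -0.36, -0.34 and -0.72 in DMSO and 0.05, 0.15 and 0.59 in abemaciclib, a difference of 0.74. The ratio was negative in each control library and positive in each treated one, though by only 0.05 in abemaciclib replicate 1. How well each 3′ end is primed and mapped was not tested, so the more abundant mRNA of the pair is not inferred. This pair was chosen because of its members' changes, and the difference is a description with no test. The remaining members of the role, EIF2A and EIF2D, which deliver tRNA by other routes, had log2 fold changes of -0.18 and 0.17 and overlapping groups.

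None of the 5 eIF2B subunits, which recharge eIF2 with GTP, passed the test. Their log2 fold changes ran from -0.33 to 0.07, with a median of -0.16, at 25.7% of genes called overall. EIF2B5, the catalytic subunit, was at 26.4, 30.6 and 34.2 CPM in DMSO and at 35.7, 30.6 and 25.7 CPM in abemaciclib. Its libraries overlapped completely, and its log2 fold change was 0.01 with a 95% interval of -0.38 to 0.40.

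None of the 4 eIF2 kinases passed the test either, against 25.7% of all genes tested. EIF2AK1 (HRI, the haem-regulated kinase that also relays mitochondrial stress) was the most abundant, at 344.6, 309.8 and 313.5 CPM in DMSO and 301.6, 297.0 and 279.4 CPM in abemaciclib. Its treated libraries were all below the control ones, but by a log2 fold change of only -0.14 (95% interval -0.34 to 0.05). EIF2AK4 (GCN2, which senses uncharged tRNA) was at 84.4, 99.5 and 102.4 CPM in DMSO and 122.2, 106.1 and 112.9 CPM in abemaciclib. Its groups did not overlap, and its log2 fold change of 0.25 had an unadjusted P of 0.0444 and an adjusted P of 0.127 (edgeR).

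EIF2AK2 (PKR, the sensor of double-stranded RNA) was at 41.8, 48.7 and 38.8 CPM in DMSO and 45.1, 52.6 and 45.1 CPM in abemaciclib, with a log2 fold change of 0.15 (95% interval -0.18 to 0.47). EIF2AK3 (PERK, the sensor of the endoplasmic reticulum) was the least abundant kinase, at 17.1, 10.1 and 6.36 CPM in DMSO and 11.8, 15.3 and 14.6 CPM in abemaciclib. Its control libraries spanned the treated ones, and the 95% interval of its log2 fold change, -0.33 to 0.95, was too wide to exclude a change of moderate size.

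The eIF3 complex, the large scaffold that binds the small subunit and recruits mRNA, was represented by 14 members. Of these 11 were tested, 2 rose and none fell (18.2% called, against 25.7% of all genes tested). Its median log2 fold change was -0.02. EIF3F (chromosome 11, 7970251 to 8001862, plus strand) and EIF3H, which form a pair within the complex through their MPN domains, were the members that rose. EIF3F was at 66.1, 58.5 and 70.3 CPM in DMSO and at 91.7, 71.8 and 107.0 CPM in abemaciclib (log2 fold change 0.47, SE 0.14, adjusted P = 0.0154, edgeR). The groups were apart by a narrow margin, 70.3 against 71.8 CPM.

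EIF3H (minus strand) was at 158.1, 139.6 and 137.5 CPM in DMSO and at 174.0, 188.2 and 200.5 CPM in abemaciclib (log2 fold change 0.37, SE 0.11, adjusted P = 0.0107, edgeR). All treated libraries were above all controls. Either call could be lost by leaving out 1 library. For EIF3F it was lost without DMSO replicate 2 (adjusted P = 0.103) or abemaciclib replicate 3 (0.0887), and for EIF3H without DMSO replicate 2 (0.0678) or DMSO replicate 3 (0.0547), so that no eIF3 member passed the test without DMSO replicate 2.

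The levels of the other tested eIF3 subunits overlapped between groups, and their log2 fold changes ran from -0.27 for EIF3K to 0.28 for EIF3E. EIF3E was at 98.9, 120.0 and 118.1 CPM in DMSO and 138.9, 103.4 and 166.7 CPM in abemaciclib (unadjusted P = 0.0521, edgeR). EIF3K was at 139.8, 120.9 and 124.5 CPM in DMSO and 92.0, 96.5 and 130.2 CPM in abemaciclib, and had an unadjusted P of 0.041 (edgeR) and an adjusted one of 0.12. In both, 1 treated library lay among the controls, and without that library EIF3E would have been called higher (adjusted P = 0.02) and EIF3K lower (adjusted P = 0.00339).

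Subunits of this one complex differed widely in mRNA level. The libraries were made from the 3′ end of each mRNA, so the counts do not grow with transcript length, although how well each 3′ end is primed and mapped was not tested. In DMSO, EIF3A, the largest scaffold subunit, had a mean of 722.8 CPM and EIF3J, a loosely bound subunit, 546.6 CPM, followed by EIF3B at 239.4 CPM and then 7 subunits between 100.6 and 163.7 CPM, with EIF3F lowest at 65.0 CPM. Neighbours among those 7 overlapped in their control libraries, except EIF3K and EIF3E, whose nearest libraries were at 120.9 and 120.0 CPM. The order at the top (EIF3A, EIF3J, EIF3B) was the same after abemaciclib, at means of 756.1, 595.1 and 219.5 CPM, and EIF3F remained lowest by mean, at 90.2 CPM, but its libraries then overlapped those of EIF3M.

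EIF3C and EIF3CL are near-identical copies whose reads cannot be told apart, and both had at most 5.67 CPM in any library. EIF3L was at 0 to 1.82 CPM. The 3′ end of EIF3L lies on another same-strand gene model that had 49 counts in all. These low counts are not read as low expression, and how reads that map to several places were treated is not given in the sources used here.

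**Figure D4:**
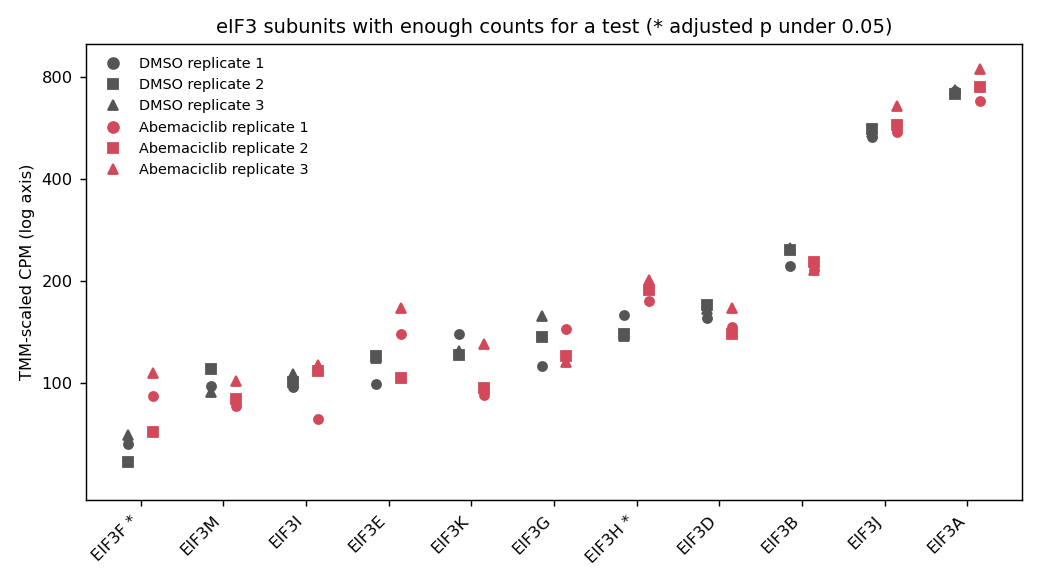
Levels of the 11 tested eIF3 subunits in TMM-scaled CPM on a log axis, ordered by their DMSO mean, for 3 DMSO (grey) and 3 abemaciclib (red) libraries with shapes for the replicate number. EIF3F at the left and EIF3H in the middle are the subunits marked as past an adjusted P of 0.05, and EIF3J and EIF3A at the right stand above the rest in both groups.

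Among the eIF4 factors, which bind the cap, bridge to the ribosome and unwind the leader, 11 of 12 members were tested. Of these 1 rose and 2 fell (27.3% called, against 25.7% of all genes tested), with a median log2 fold change of 0.14. EIF4G3 (chromosome 1, 20806292 to 21177285, minus strand), a paralogue of the scaffold EIF4G1, was at 35.1, 32.1 and 31.8 CPM in DMSO and at 55.7, 54.5 and 50.0 CPM in abemaciclib. It had the largest rise of the family, 1.62-fold, with every treated library well above every control (log2 fold change 0.69, SE 0.16, adjusted P = 0.00147, edgeR). The call held under each of the 13 alternative settings.

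EIF4G1, the main scaffold, was read at a far higher level, at 420.3, 450.6 and 451.9 CPM in DMSO and 504.9, 529.5 and 440.7 CPM in abemaciclib. The groups overlapped through abemaciclib replicate 3, and the log2 fold change was 0.16 (95% interval -0.04 to 0.35, adjusted P = 0.241, edgeR). Without that library it was 0.23 and passed the test (adjusted P = 0.0345). The log2 ratio of EIF4G1 to EIF4G3 was 3.72 ± 0.14 in DMSO and 3.19 ± 0.07 in abemaciclib (SD, n = 3), lower in 3 of 3 treated libraries than in any control. Its difference of -0.53 had an exact two-sided permutation P of 0.1, the smallest that 3 against 3 libraries allow, and 0.6 after adjustment over 6 pairs of paralogues.

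EIF4E, the cap-binding protein, was at 60.3, 61.5 and 48.5 CPM in DMSO and 49.3, 40.5 and 65.4 CPM in abemaciclib. The treated libraries spanned the control ones, with a log2 fold change of -0.14 and a 95% interval of -0.48 to 0.20. EIF4E2 (4EHP; chromosome 2, 232550659 to 232583644, plus strand), which binds the cap but not eIF4G and represses the mRNAs it holds, was at 122.1, 121.2 and 106.0 CPM in DMSO and 90.5, 97.9 and 88.4 CPM in abemaciclib. It fell by 0.34 on the log2 scale (SE 0.12, adjusted P = 0.0345, edgeR), the weakest of the 10 calls: it held in 5 of 13 alternative settings, was lost with DESeq2 (adjusted P = 0.0717), and was lost without each of DMSO replicates 1 and 2 and abemaciclib replicates 1, 2 and 3, at adjusted P values up to 0.131.

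EIF4A3 (chromosome 17, 80134369 to 80147151, minus strand), a helicase that is a core of the exon junction complex rather than a cap-complex subunit, was at 154.6, 130.7 and 146.3 CPM in DMSO and 109.5, 120.2 and 105.6 CPM in abemaciclib. All treated libraries were lower, and it fell to 0.777 of control (log2 fold change -0.36, SE 0.11, adjusted P = 0.017, edgeR). That call was lost without DMSO replicate 1 (adjusted P = 0.101) or DMSO replicate 3 (0.0563).

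The eIF4A helicases of the cap complex itself did not pass the test. EIF4A2 was at 48.1, 50.5 and 32.1 CPM in DMSO and 30.6, 56.3 and 56.2 CPM in abemaciclib (log2 fold change 0.14, 95% interval -0.27 to 0.54). EIF4A1 was at only 2.9, 8.32 and 5.45 CPM in DMSO and 7.26, 2.96 and 9.19 CPM in abemaciclib, and its log2 fold change of 0.21 had a 95% interval of -0.74 to 1.16. The 3′ end of EIF4A1 lies on a pair of same-strand gene models that had 0 counts or were not in the count table. The level of EIF4A1, and its ratio to EIF4A2, are therefore uncertain, and its low counts are not read as low expression. EIF4B, which stimulates eIF4A, was higher in each treated library than in any control, with means of 184.4 and 214.3 CPM and a log2 fold change of 0.22 that missed the threshold (adjusted P = 0.13, edgeR), and its pseudogenes had 534 counts against 4232 of its own.

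The repressors that bind eIF4E did not pass the test in any of 3 tested members, at 25.7% of genes called overall. EIF4EBP1 was at 34.8, 44.3 and 38.5 CPM in DMSO and 30.6, 41.9 and 34.0 CPM in abemaciclib (log2 fold change -0.14, 95% interval -0.50 to 0.22). EIF4EBP2 was at 105.0, 104.3 and 93.9 CPM in DMSO and 76.5, 89.3 and 92.7 CPM in abemaciclib. Its treated libraries were all lower, and its log2 fold change of -0.23 had a 95% interval of -0.48 to 0.02. EIF4ENIF1, which carries eIF4E into the nucleus and P-bodies, had a log2 fold change of 0.21 with treated libraries above controls (adjusted P = 0.411, edgeR).

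At the last step, subunit joining, EIF5B rose. EIF5B (chromosome 2, 99337371 to 99401326, plus strand), the GTPase that joins the large subunit, was at 358.8, 365.7 and 368.6 CPM in DMSO and 445.0, 430.5 and 499.3 CPM in abemaciclib. The control libraries lay close together, with an SD of 5.05 CPM, and all treated libraries were above them, a 1.26-fold rise (log2 fold change 0.33, SE 0.09, adjusted P = 0.00901, edgeR). Its adjusted P was 0.0503 without DMSO replicate 1. The 3′ end of EIF5B lies on the opposite-strand gene REV1, which had 245 counts against 8749 for EIF5B. EIF2AK2, EIF4A2, EIF2B1, EIF2B2, EIF3A, EIF3G and EIF3J likewise end on genes of the opposite strand, and their levels are uncertain to that extent, since the use of strand in counting is not known.

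EIF5A, the hypusine-containing factor that helps ribosomes past difficult peptide bonds, was at 169.1, 188.9 and 175.1 CPM in DMSO and 200.3, 173.9 and 137.0 CPM in abemaciclib. Its treated libraries spanned the controls (log2 fold change -0.06, 95% interval -0.31 to 0.18). EIF5AL1, a near-copy of EIF5A, was listed with more counts than EIF5A, at means of 533.4 and 500.2 CPM, and reads from the copies cannot be assigned with certainty. EIF6, which keeps the large subunit from joining early, had a log2 fold change of -0.11, with overlapping groups.

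Ratios within a library were computed for 6 pairs of paralogues, since they do not depend on the scaling between libraries. Apart from EIF4G1 over EIF4G3, no pair had groups that did not overlap. The difference of the mean log2 ratio was 0.08 for EIF4A1 over EIF4A2, -0.13 for EIF1 over EIF1B, 0.22 for EIF5A over EIF5A2, 0.18 for EIF4E over EIF4E2 and 0.09 for EIF4EBP1 over EIF4EBP2. Each had an exact permutation P of at least 0.7, and all 5 changed sign when some single library was left out. EIF5A2 had too few counts to test, at 0.0 to 3.77 CPM in DMSO and 0.74 to 0.908 CPM in abemaciclib. Its ratio therefore depends on the pseudocount of 0.5 CPM.

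A further 3 ratios were computed after the values were seen and carry no test. Besides EIF2S3 over EIF2S2, the log2 ratio of EIF5 to EIF5B went from a mean of -1.57 to -2.79. It sets the GTPase activator that acts at the start codon against the GTPase of subunit joining. The log2 ratio of EIF4G3 to EIF4E went from -0.77 to 0.07. Neither overlapped between the groups.

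**Figure D5:**
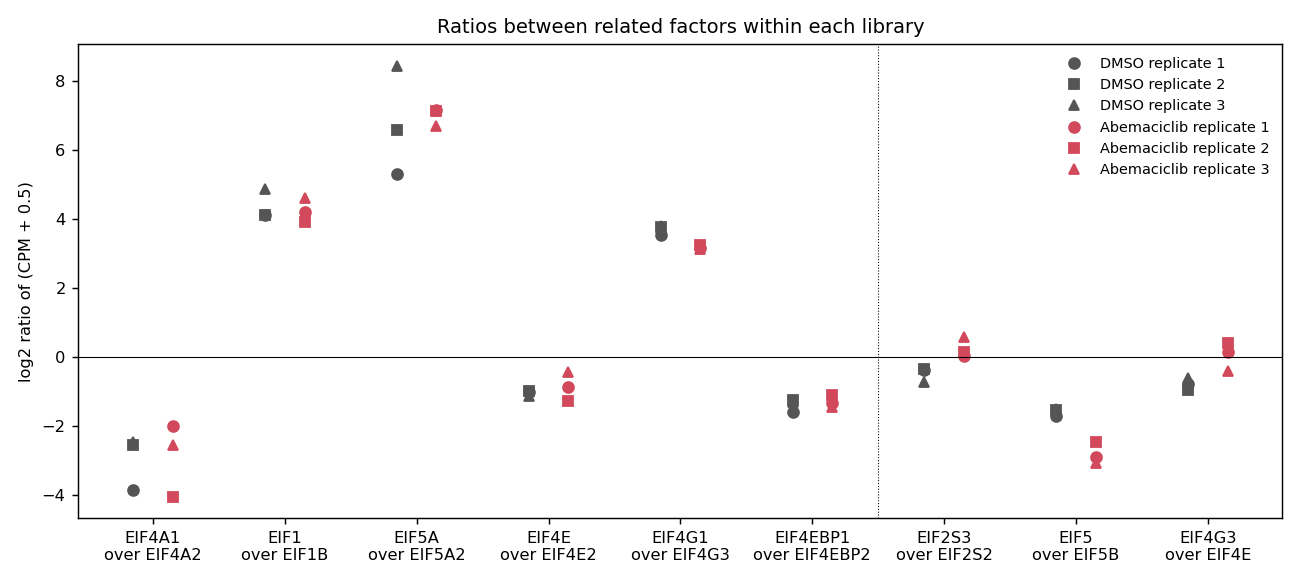
Log2 ratios of TMM-scaled CPM plus 0.5 between members, for 3 DMSO (grey) and 3 abemaciclib (red) libraries with shapes for the replicate number. Left of the dotted line are the 6 pairs of paralogues, of which EIF4G1 over EIF4G3 is the pair whose groups do not overlap, and right of it the 3 pairs chosen after the values were seen.

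Promoters were examined for the members, as 300 bases of RefSeq sequence (GRCh38.p14) from 250 before to 50 after the annotated start. A promoter was matched for 47 of the 56 members and for 8 of the 10 past the test. Searched were 8 short motifs, on both strands, none of which is contained in another: the E2F element GCGGGAA, the cell cycle element CHR (TTTGAA), the C/EBP-ATF element TGATGNAA, the cAMP response element CRE (TGACGTNA), the E-box CACGTG, the ETS element CCGGAAG, the YY1 element AAGATGGC and the NRF1 element GCGCATGC. The share of all promoters with none of these motifs was not counted. In 5 of the 8 promoters of members past the test none of these letters was found, EIF1 and EIF5 among them. The promoters of these 2 are shown as the members that fell furthest, and those of EIF3F and EIF4A3 because they hold matches, in capitals: an E-box and a YY1 element in EIF3F, and an E2F element and an E-box in EIF4A3. The YY1 match of EIF3F includes its start codon, so it is the same stretch as in the start codon context above.
EIF1, chr17:41688635-41688934, plus strand: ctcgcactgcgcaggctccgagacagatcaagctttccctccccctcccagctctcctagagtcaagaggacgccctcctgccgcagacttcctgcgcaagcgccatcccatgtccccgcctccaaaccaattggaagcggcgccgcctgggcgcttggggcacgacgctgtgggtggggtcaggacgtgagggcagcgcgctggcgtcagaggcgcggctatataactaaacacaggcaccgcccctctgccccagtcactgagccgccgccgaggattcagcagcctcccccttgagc
EIF5, chr14:103333987-103334286, plus strand: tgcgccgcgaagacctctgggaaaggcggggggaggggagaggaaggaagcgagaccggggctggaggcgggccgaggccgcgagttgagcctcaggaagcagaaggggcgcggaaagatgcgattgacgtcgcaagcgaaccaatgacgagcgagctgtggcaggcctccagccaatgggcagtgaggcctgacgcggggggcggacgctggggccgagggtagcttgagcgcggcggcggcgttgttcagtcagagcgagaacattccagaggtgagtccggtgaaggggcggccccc
EIF3F, chr11:7987087-7987386, plus strand: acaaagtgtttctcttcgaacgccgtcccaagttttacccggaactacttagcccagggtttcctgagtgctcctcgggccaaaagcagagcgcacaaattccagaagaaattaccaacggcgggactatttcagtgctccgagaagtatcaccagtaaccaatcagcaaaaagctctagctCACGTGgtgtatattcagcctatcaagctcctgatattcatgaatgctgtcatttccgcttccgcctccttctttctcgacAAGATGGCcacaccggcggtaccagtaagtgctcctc
EIF4A3, chr17:80147079-80147378, minus strand: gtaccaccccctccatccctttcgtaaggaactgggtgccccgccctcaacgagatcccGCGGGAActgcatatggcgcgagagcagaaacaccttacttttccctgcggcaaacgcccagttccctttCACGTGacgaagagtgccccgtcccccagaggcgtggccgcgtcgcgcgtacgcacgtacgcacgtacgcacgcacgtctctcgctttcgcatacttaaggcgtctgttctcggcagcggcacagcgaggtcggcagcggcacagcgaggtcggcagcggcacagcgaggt

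Matches for the E-box were found in 12 of the 47 member promoters (25.5%), against 8.88% of 15842 protein-coding promoters of the same length. They were in 1 of 4 members that rose (EIF3F), 1 of 4 that fell (EIF4A3) and 8 of 33 that did not pass. The ETS element was also in 12 member promoters (25.5%, against 14.2%), among them EIF4E2. The E2F element was in 2 (4.26%, against 8.6%), the CHR element in 3 (6.38%, against 12.1%), the YY1 element in 3 (6.38%, against 3.91%), the NRF1 element in 2 (4.26%, against 4.26%), the CRE in 1 (2.13%, against 3.91%) and the C/EBP-ATF element in 0 (against 2.53%). A match is a description of these letters and was not tested against the expression values.

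Genes of translation outside the family were counted from lists chosen by role. Of 35 regulators of initiation, all tested, 7 rose and 3 fell (28.6%, near the 25.7% of all genes), with a median log2 fold change of 0.04. The fall of ATF4, the transcription factor whose mRNA is translated when eIF2 is phosphorylated, exceeded that of any EIF member: it was at 169.4, 134.6 and 165.1 CPM in DMSO and 52.9, 46.6 and 57.6 CPM in abemaciclib (log2 fold change -1.58, SE 0.13, adjusted P = 1.03e-10, edgeR). The other 2 that fell were DHPS, the first enzyme of hypusine synthesis on eIF5A (means of 20.4 and 9.42 CPM, log2 fold change -1.13), and PABPC4, a poly(A)-binding protein (-0.29).

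The regulators that rose furthest were CYFIP1, which binds eIF4E as a partner of FMRP (log2 fold change 0.66), MKNK2, a kinase of eIF4E (0.54), NCBP2, the nuclear cap-binding subunit (0.43), DHX29, a helicase of scanning ribosomes (0.42), and BZW1, an eIF5 mimic (0.41). The number that rose was 4 of 35 with DESeq2, 2 without DMSO replicate 1, 4 without DMSO replicate 2 or 3 and 3 without abemaciclib replicate 2. PABPC1 (log2 fold change 0.03) and MTOR (0.24, 95% interval -0.19 to 0.68) did not pass the test.

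Of 14 elongation and termination factors 13 were tested, 2 rose and 1 fell (23.1%). EEF2, the translocase, rose from 2544 ± 104 to 3410 ± 337 CPM (SD, n = 3) and EEF1A1, which brings aminoacyl-tRNA to the ribosome, rose by 0.39 on the log2 scale. EEF1D fell by 0.39 with overlapping libraries, a call that neither DESeq2 nor the fits without replicate 2 of either group made. EEF1G, an abundant partner of EEF1D in most cells, was listed at 0 in every library, and that value is not read as a lack of expression.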

How the data were processed

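The 6 libraries, 3 of DMSO and 3 of 500 nM abemaciclib in the parental line, were grouped by the treatment in their labels. Per the submitters' processing notes, the authors aligned reads of 3′ mRNA libraries to hg38 with STAR 2.7.5b and counted them per gene with featureCounts 2.0.1. These whole-number counts were deposited without normalization or filter. Whether counting used strand is not given in the sources used here, and the kit is named differently in the labels and the methods. Symbols and biotypes came from a later annotation of the same assembly (60401 of 60656 identifiers matched).

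The members and lists were chosen with earlier results of these data known. Start codon contexts, the 8 motifs, the choice of promoters shown, the split at 100 CPM and 3 ratios were added after values had been seen. Members named with each library's value are those past the threshold and a fixed list of central factors (EIF4E, EIF4G1, EIF4A1, EIF4A2, EIF4EBP1, EIF4EBP2, EIF2S1, EIF2B5, EIF5A and the eIF2 kinases, and EIF5A2 if tested). EIF3E and EIF3K were also given in full, chosen after their values were seen.

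Counts were tested on the whole table with edgeR 4.0.16 in R 4.3.3 (filterByExpr, TMM, glmQLFit and glmQLFTest, Benjamini–Hochberg over 10863 genes, threshold 0.05, two-sided). The SE is the log2 fold change over the square root of its F statistic. Ratios used a pseudocount of 0.5 CPM and exact two-sided permutation. The fit was tested on simulated data first. Libraries held 3317860 to 4013156 counts, a count of 0 allows up to 3 counts (0.748 to 0.904 CPM, counting error only), and the biological coefficient of variation was 13.2%. Replicates of a group differed by more than sampling noise, so none was a duplicate. Abemaciclib replicate 3 stood furthest from the others of its group. Its chi-square over degrees of freedom was 6.98 against replicate 1 and 7.41 against replicate 2. Other pairs within a group were at 2.83 to 4.21. Alternatives were DESeq2 1.42.0, other scalings and filters, pseudogene counts added, members with overlapped 3′ ends left out, a replicate block, and each library left out.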

Additional observations from a re-analysis of the deposited data

How the results depend on the processing

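Of the summary values recomputed under the alternatives, 411 stayed within a tolerance, 40 moved beyond it and 10 changed sign. The tolerance was 1.5 times for counts and 1 SD between libraries for medians and shares, and within it the eIF3 median went from -0.02 to 0.02 without DMSO replicate 3, while ratios were judged by sign alone. The median over all members ran from -0.10 to -0.03. Of the values of single named members, 273 kept direction and side of the threshold, 17 lost their call, 1 gained one and 8 changed sign. EIF1, EIF5, EIF2S3 and EIF4G3 passed the test under all 13 alternatives, and changes of scaling, the minimum of 10 counts in every library and the addition of pseudogene counts ended none of the 10 calls. Leaving out the members whose 3′ end is overlapped gave 4 higher and 5 lower. The cause of the movements below was not tested.

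With each library left out in turn, 3 to 6 members were higher and 3 to 5 lower. By role, the number lower was 0 to 1 for eIF2 and 0 to 1 for eIF4 factors, which was also 1 with DESeq2 and with no filter on low counts. For eIF3 it was 0 to 3 higher and 0 to 1 lower, for eIF4 1 to 2 higher, and for subunit joining 0 to 1 higher. The median log2 fold change ran from -0.11 to 0.01 for eIF2, -0.24 to -0.08 for eIF2B, 0.05 to 0.24 for the kinases, -0.10 to 0.13 for eIF3, -0.11 to 0.17 for eIF4 and -0.09 to 0.02 for subunit joining. Outside the family, 2 to 6 initiation regulators were higher, with 4 under DESeq2, and 0 to 2 elongation factors lower, with 0 under DESeq2.

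The differences of the log2 ratios ran from -0.37 to 0.67 for EIF4A1 over EIF4A2, -0.32 to 0.11 for EIF1 over EIF1B, -0.51 to 1.06 for EIF5A over EIF5A2 (-0.19 with a pseudocount of 0.1 CPM), -0.03 to 0.39 for EIF4E over EIF4E2 and -0.02 to 0.16 for EIF4EBP1 over EIF4EBP2. Leaving out a library also took the log2 fold change across 0 for EIF4E (-0.34 to 0.02), EIF4A1 (-0.14 to 0.62), EIF4A2 (-0.04 to 0.37), EIF2B5 (-0.11 to 0.12) and EIF5A (-0.19 to 0.07), none of them past the test, and EIF2B5 was at -0.00 with total counts as the scaling.

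The replicate numbers share only a number between groups: the correlations of same-numbered libraries' deviations were -0.0434, 0.00705 and -0.0893. With the replicate block, 5 members were higher and 4 lower, the eIF4 factors had 1 lower, EIF4E2 being at an adjusted P of 0.0665 (edgeR), and 4 initiation regulators were higher.

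At these depths the 95% interval of a well-counted member spanned about 0.4 on the log2 scale (EIF1AX, -0.16 to 0.24). That of EIF4A1, which had few counts, ran from -0.74 to 1.16. Smaller changes of members with few counts were therefore not detectable.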
